A study of Homo sapiens with 6 samples.

Results

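The genes described here are 10 amino acid transporters of the plasma membrane, SLC7A7, SLC7A1, SLC7A5, SLC7A6, SLC7A8, SLC3A1, SLC3A2, SLC1A5, SLC38A1 and SLC38A2, taken by symbol from the 25369 genes in the files. All 10 symbols were found. The group was drawn up around SLC7A7 because its transcript was much lower in cells with PBRM1, so the set was chosen by the normalized counts of SLC7A7 in this comparison, which are given as a description, with no test. The mean of SLC7A7 was 92.6 normalized counts without and 31.6 with PBRM1. Of the other members, SLC3A1 was lower and SLC38A2 was higher in cells with PBRM1. The call of SLC3A1 was lost with DESeq2, and part of its exon bases is shared with the antisense gene PREPL. The abundant transporters SLC7A5, SLC3A2, SLC1A5 and SLC38A1 did not pass the test.

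Cells take up and exchange amino acids through carriers that differ in substrate and in coupling to sodium. The SLC7 light chains SLC7A5, SLC7A6, SLC7A7 and SLC7A8 reach the cell surface as heterodimers with the SLC3A2 heavy chain, also called CD98 or 4F2hc, and exchange an amino acid inside the cell for another outside it. Sodium-coupled carriers such as SLC38A1 and SLC38A2 load the cell with neutral amino acids such as glutamine, while the sodium-dependent SLC1A5 exchanges such amino acids. The proximal tubule of the kidney, where clear cell renal cell carcinoma (ccRCC) is thought to arise, reabsorbs filtered amino acids through SLC3A1 and related proteins.

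PBRM1 is a subunit of the PBAF chromatin remodeling complex. Caki2, a ccRCC line without PBRM1 protein, was profiled by RNA-Seq, which compared Caki2 cells bearing the empty tet-inducible lentiviral vector (Caki2+Vector) with Caki2 cells bearing the same vector with full length PBRM1 (Caki2+PBRM1), in 3 libraries per group named A, B and C. Both groups received doxycycline at 2 µg/mL, carried the vector that drives the rtTA3 activator from a CMV promoter, and were kept as selected stable lines. A single parental line stands behind both groups, and PBRM1 in Caki2+PBRM1 is driven by the vector and not by its own promoter. The files hold normalized counts, that is, the reads counted on a gene divided by a size factor per library, with no division by gene length.

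Between 7312955 and 10835355 reads per library were counted on genes. PBRM1 itself had 195, 182 and 182 normalized counts in Caki2+Vector and 2432, 2521 and 2682 in Caki2+PBRM1, so every library matched its label. Caki2+Vector A stood apart from its group. Its counts differed from those of Caki2+Vector B and C by a chi-square per degree of freedom of 3.09 and 2.84, against 1.34 between B and C and 1.19 to 1.22 among the Caki2+PBRM1 libraries, where sampling noise alone gives about 1. Of 19 markers of renal epithelium and ccRCC, 15 reached the filter used for the test and 12 had a mean of at least 50 normalized counts, among them PAX8. The summed level of the 19 was 38366 to 39469.6 in the 3 Caki2+Vector libraries and 40502 to 41448 in the Caki2+PBRM1 libraries, without overlap. The markers in it did not move together, since the mesenchymal filament gene VIM (means 14933 and 16906) and the cadherin CDH6 (1163 and 2536) were higher and the keratins KRT8 (8572 and 7569) and KRT18 (3529 and 2786) were lower with PBRM1, all past the test described with the members. Their part in the results was not tested. CA9, ANPEP, LRP2 and AQP1 were low, with no library above 15.2 normalized counts. The summed level of 5 leukocyte markers ranged over 6.61 to 13.3 normalized counts without PBRM1 and over 4.33 to 10.9 with it, that of 4 endothelial markers was 0.947 to 4.72 and 3.36 to 6.22, and that of 5 fibroblast markers was 92.3 to 103 and 90.6 to 115.

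The members were read from 10 loci on 7 chromosomes of GRCh37. SLC7A7 (ENSG00000155465) lies on chromosome 14 from 23242431 to 23299029, SLC3A1 (ENSG00000138079) on chromosome 2 from 44502597 to 44548633, and SLC38A2 (ENSG00000134294) on chromosome 12 from 46751971 to 46766556. Chromosome 14 also holds SLC7A8, chromosome 12 also holds SLC38A1, and chromosome 16 holds SLC7A5 and SLC7A6.

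The promoters are shown where they hold either of a pair of motifs that bear on amino acid transport. The E-box CACGTG is a motif bound by MYC and related factors, and the element TGATGNAAN (CARE) is bound by ATF4, the transcription factor of the amino acid starvation response. Both strands of the RefSeq windows (GRCh38.p14, 250 bases before to 50 after each annotated start) were searched, and the motifs overlap in none of the stretches printed. Windows were present for 9 of the 10 members, with 19 windows in all. The E-box was present in 4 of these 9 members, and in 8.77% of the 27305 genes in the table (7.26% of 35116 windows). The matches are printed with 30 bases around them, 5′ to 3′ on the strand of the gene, with the E-box in capitals.
SLC7A7, chr14:22816079-22816108, minus strand, E-box beginning 225 bases before 1 of its 3 starts: agaatgaaaaggCACGTGggtctggtgggg
SLC7A8, chr14:23154505-23154534, minus strand, 129 bases before 1 of its 4 starts: cacaattagaaaCACGTGctcagttccttc
SLC7A5, chr16:87869620-87869649, minus strand, 130 bases before its start: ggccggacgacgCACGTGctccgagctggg
SLC1A5, chr19:46787326-46787355, minus strand, 50 bases before 1 of its 3 starts: ggcgggagtggtCACGTGgacaggacgggg

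The CARE letters were present in 4 of the 9 members, against 4.45% of genes (3.61% of windows), and are in capitals in these stretches. In SLC3A2 the letters are those of the opposite strand.
SLC3A2, chr11:62881719-62881748, plus strand, beginning 37 bases into the transcript from 1 of its 3 starts: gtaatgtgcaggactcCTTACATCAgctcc
SLC38A1, chr12:46266501-46266530, minus strand, 4 bases before 1 of its 2 starts: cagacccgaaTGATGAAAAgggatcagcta
SLC7A1, chr13:29595662-29595691, minus strand, 8 bases into the transcript: ggcgcactgcTGATGAAACctggcgccgga
SLC1A5, chr19:46784892-46784921, minus strand, 97 bases before 1 of its 3 starts: aggaagtggcTGATGCAAGctgtccagggt
A match is a stretch of letters and not a measured binding site. Members with several annotated starts had more windows than the average gene. Neither motif was present in the windows of SLC38A2 and SLC7A6, and the members with an E-box included SLC7A7, which was lower with PBRM1, and SLC7A5 and SLC1A5, which did not pass the test.

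SLC7A7 is the y+LAT1 light chain, which with SLC3A2 exports arginine and lysine from the cell in exchange for neutral amino acids and sodium, and which is mutated in lysinuric protein intolerance. Its normalized counts were 90.9, 89.8 and 97.1 in Caki2+Vector A, B and C and 30.3, 28.4 and 36.1 in Caki2+PBRM1 A, B and C. The lowest Caki2+Vector library was thus well above the highest Caki2+PBRM1 library. These values rest on 81 to 96 reads per Caki2+Vector library and 28 to 43 per Caki2+PBRM1 library. The means were 92.6 ± 3.95 and 31.6 ± 3.98 normalized counts (SD, n = 3), which is 2.93-fold lower with PBRM1. The log2 difference on the log2(normalized count + 1) scale was -1.53 (SE 0.158), the 13th from the lowest of 13303 tested genes. Leaving out each library in turn gave -1.62 to -1.46. In GENCODE no exon of another gene overlapped those of SLC7A7, SLC7A1, SLC3A2, SLC38A1 or SLC38A2. In bulk RNA, fewer cells that express the gene and less RNA per cell cannot be told apart.

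**Figure D1:**
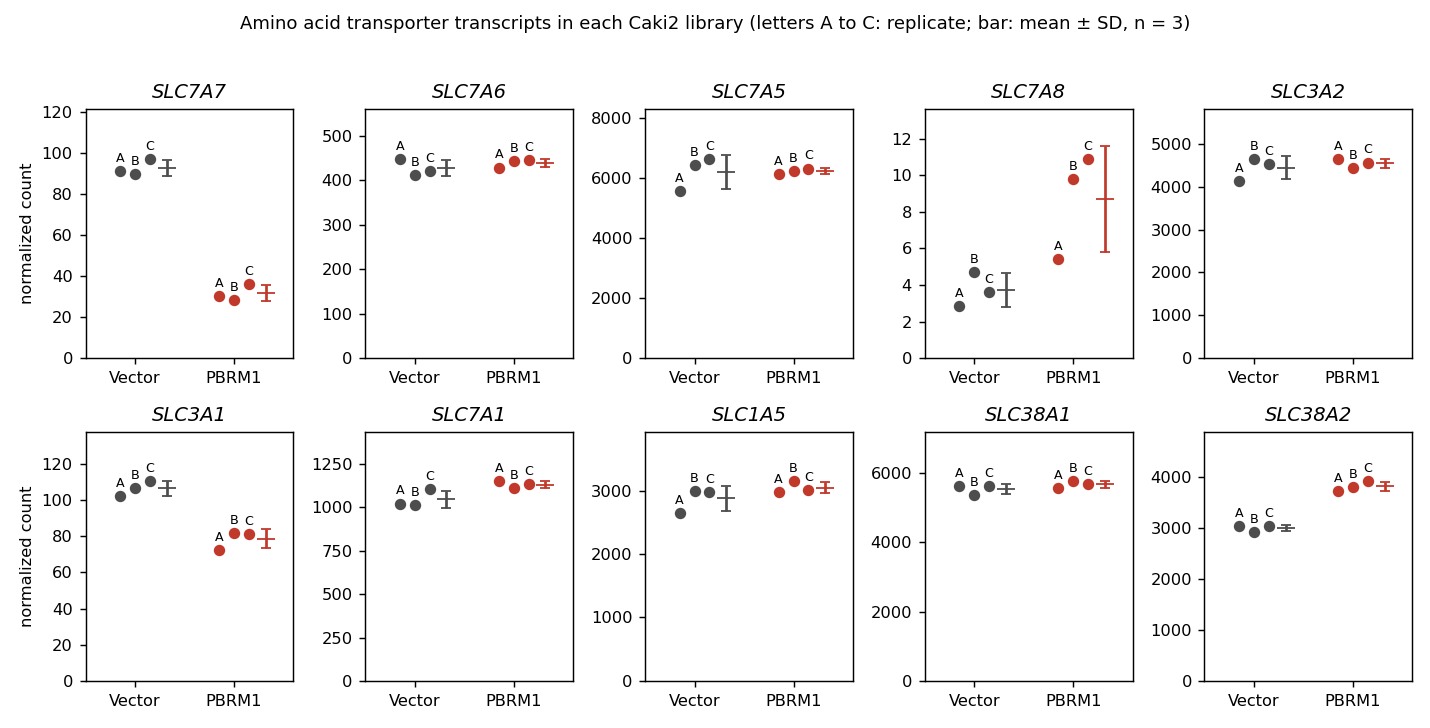
Normalized counts (y axis, from 0, a scale for each gene) of the 10 transporters in the 3 Caki2+Vector (grey) and 3 Caki2+PBRM1 (red) libraries, with the replicate letter at each point and the mean ± SD (n = 3) beside it. SLC7A7 lies at 89.8 to 97.1 in Caki2+Vector and at 28.4 to 36.1 in Caki2+PBRM1, SLC38A2 lies higher in every Caki2+PBRM1 library, and Caki2+Vector A is the lowest library for SLC7A5, SLC3A2 and SLC1A5.

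The other 9 members were compared with the moderated test of limma, fitted across all 13303 genes that had at least 10 normalized counts in at least 3 libraries, and genes with a Benjamini-Hochberg adjusted p under 0.05 were called. Of the 8 of them that passed the filter, 1 was higher and 1 was lower with PBRM1. Across all tested genes the same threshold called 29.2% (16.2% higher and 13.0% lower), so 2 of 8 is near the background share. The median log2 difference of these 8 was 0.04, against -0.004 for all tested genes. The 3 libraries of each group did not overlap for SLC3A1, SLC7A1 and SLC38A2 among these 8, where 41.7% of all tested genes had groups that did not overlap.

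SLC7A6, the y+LAT2 light chain, carries out the same kind of exchange as SLC7A7. It had 449, 413 and 422 normalized counts in Caki2+Vector and 429, 443 and 445 in Caki2+PBRM1. The groups overlapped, and the log2 difference was 0.04 with a 95% interval from -0.09 to 0.17 (adjusted p = 0.715). A part of the exon bases of SLC7A6, 3372 of 7588, is also exonic in the antisense gene SLC7A6OS, which had 35.7 to 62.3 normalized counts. The sources used here state neither a stranded protocol nor how reads on shared bases were counted. Such reads may have been counted for either gene or left out.

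**Figure D2:**
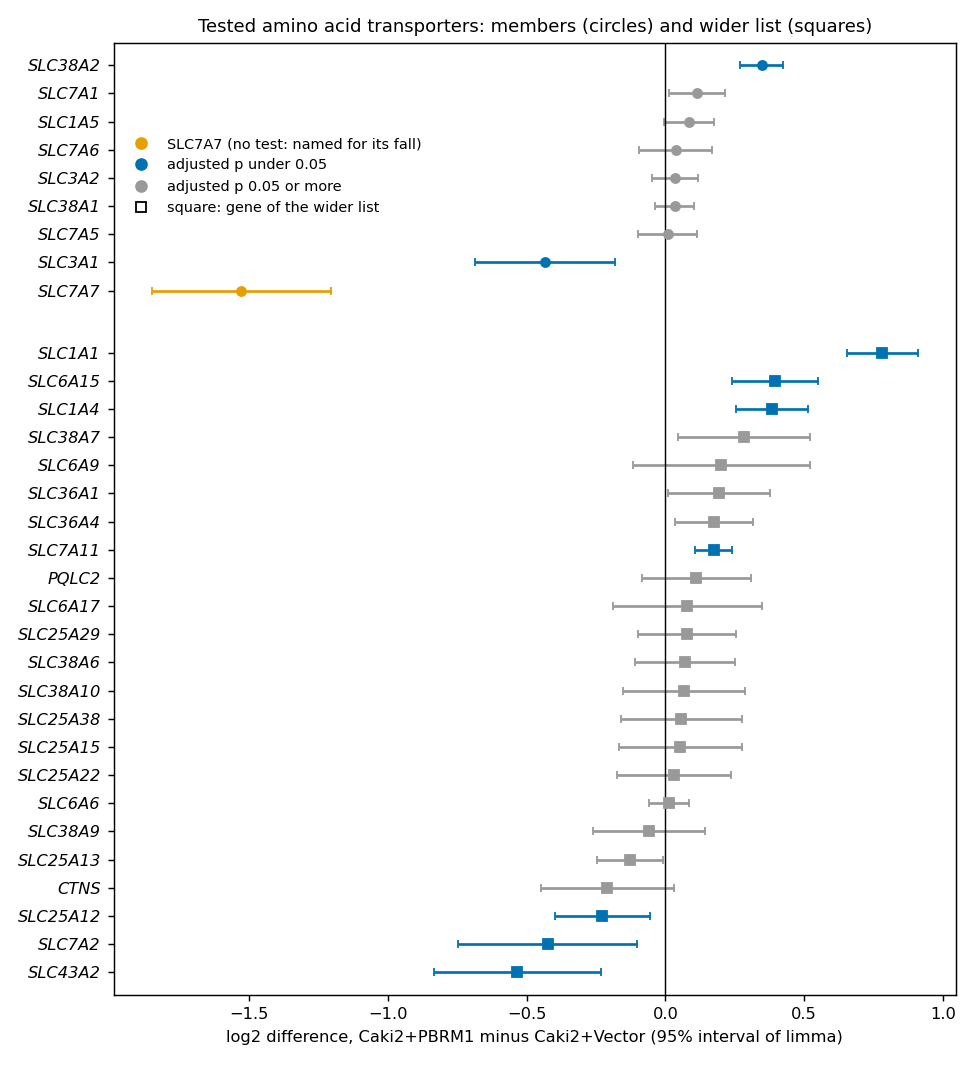
Difference in log2(normalized count + 1) between Caki2+PBRM1 and Caki2+Vector (x axis) with the 95% interval of limma for the 9 members that passed the filter (circles) and for 23 other amino acid transporters (squares). SLC7A7 at -1.53, for whose fall the members were chosen, lies to the left of every other gene shown. It was not tested, and its interval is a description only. Blue points passed the test, and grey points did not.

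SLC7A5, the LAT1 light chain that imports leucine and other large neutral amino acids, was among the most abundant members. Its normalized counts were 5557, 6425 and 6644 in Caki2+Vector and 6121, 6234 and 6317 in Caki2+PBRM1. The Caki2+PBRM1 libraries lay inside the range of Caki2+Vector, where library A was the lowest. The log2 difference was 0.01 (95% interval -0.10 to 0.12, adjusted p = 0.932 from limma). Without Caki2+Vector A it was -0.07, with an adjusted p of 0.0413, so the call for SLC7A5 rests on that library. Pseudogene copies of SLC7A5 may share its reads: SLC7A5P2 had 48.3, 62.4 and 51.5 normalized counts in Caki2+Vector and 23.8, 37.3 and 45.3 in Caki2+PBRM1.

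SLC3A2, the heavy chain of these dimers, had 4136, 4654 and 4528 normalized counts in Caki2+Vector and 4639, 4426 and 4565 in Caki2+PBRM1. The groups overlapped, and the log2 difference was 0.03 (95% interval -0.05 to 0.12, adjusted p = 0.559). It turned to -0.02 without Caki2+Vector A. SLC7A8, the LAT2 light chain for small and large neutral amino acids, had 2.84, 4.72 and 3.60 normalized counts in Caki2+Vector and 5.42, 9.78 and 10.9 in Caki2+PBRM1. Every Caki2+PBRM1 library was above every Caki2+Vector library, but the gene stayed under the filter and was not tested. Its 11 reads in Caki2+Vector and 29 in Caki2+PBRM1 gave a depth-adjusted ratio of 2.40 with an exact 95% interval from 1.16 to 5.32 that covers counting error only.

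Levels of different genes were compared as normalized counts per kb of exon. In Caki2+Vector the order from high to low was SLC7A5 (1303), SLC1A5 (863), SLC3A2 (695), SLC38A1 (553), SLC38A2 (461), SLC7A1 (136), SLC7A6 (56.4), SLC7A7 (17.2), SLC3A1 (16.3) and SLC7A8 (0.621). The libraries of neighbours in that order did not overlap except for SLC7A7 and SLC3A1. In Caki2+PBRM1, SLC38A2 (587) and SLC38A1 (566) had changed places with overlapping libraries, and SLC7A7 (5.89) lay below SLC3A1 (12.0) without overlap. The order depends on the length used. Exon bases shared with other genes, as in SLC7A6 and SLC3A1, were kept in the lengths, so levels per kb are too low where reads on them were left out. With the longest transcript in place of all exons, SLC3A2 came before SLC7A5 in both groups, and SLC7A7 (30.7) already lay below SLC3A1 (35.8) in Caki2+Vector without overlap. With the coding length, SLC38A1 stayed above SLC38A2 in both groups, at 3673 and 1978 per kb in Caki2+Vector and at 3759 and 2515 in Caki2+PBRM1.

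SLC7A5 made up 94.6% ± 0.634 of the summed level per kb of SLC7A5, SLC7A6, SLC7A7 and SLC7A8 in the Caki2+Vector libraries and 95.2% ± 0.0708 with PBRM1 (SD, n = 3). These 4 are the light chains among the members and not all partners of SLC3A2, since SLC7A11, described with the wider list, is also abundant and was left out of these sums. Of the summed level per kb of SLC7A6 and SLC7A7, SLC7A7 held 22.3%, 23.5% and 24.5% in Caki2+Vector and 9.09%, 8.33% and 10.3% in Caki2+PBRM1. The groups did not overlap in this share, which was chosen with the fall of SLC7A7 known. The size of the share also depends on how reads on the shared bases of SLC7A6 were counted. The sum of SLC7A5, SLC7A6 and SLC7A8 relative to SLC3A2 was 1.96 ± 0.0805 in the Caki2+Vector libraries and 1.92 ± 0.0657 with PBRM1 (SD, n = 3, exact permutation p = 0.7, two-sided, where 3 against 3 cannot go below 0.1).

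**Figure D3:**
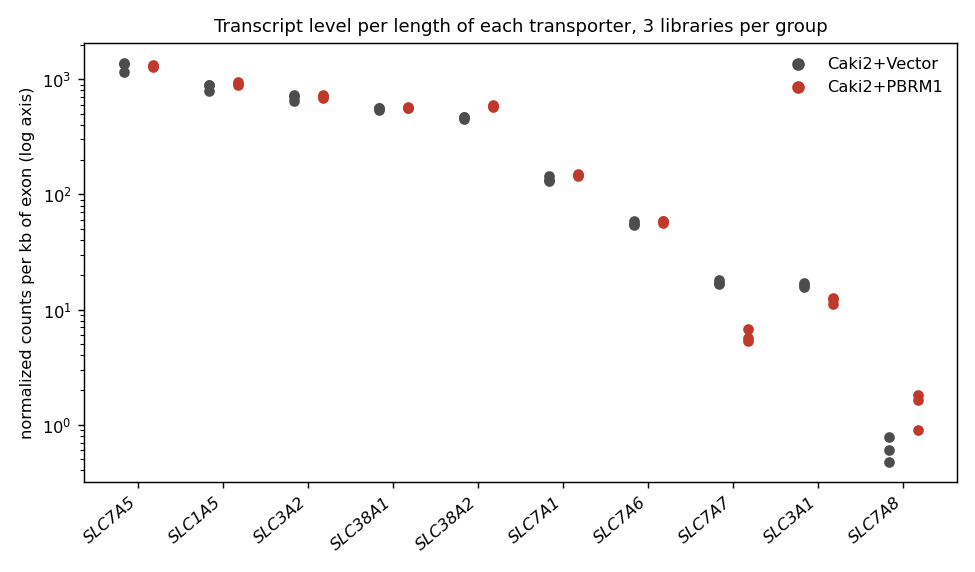
Normalized counts per kb of exon (y axis, log scale) of the 10 transporters in the 3 Caki2+Vector (grey) and 3 Caki2+PBRM1 (red) libraries, ordered by the mean of Caki2+Vector. The levels run from 1303 for SLC7A5 to 0.621 for SLC7A8 in Caki2+Vector, and SLC7A7 goes from 17.2 to 5.89 with PBRM1.

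SLC3A1, also called rBAT, is the heavy chain of the renal carrier that reabsorbs cystine and dibasic amino acids, and is mutated in cystinuria. Its normalized counts were 102, 107 and 110.3 in Caki2+Vector and 72.6, 81.8 and 81.4 in Caki2+PBRM1. The groups did not overlap, and the mean was 1.35-fold lower with PBRM1. The log2 difference was -0.43 (SE 0.123, adjusted p = 0.00788 from limma) and -0.46 to -0.38 when each library was left out in turn, but with DESeq2 on the recovered reads the adjusted p was 0.0629 and the gene was not called. Its light chain SLC7A9 had 2, 2 and 0 reads in Caki2+Vector and 1, 0 and 1 in Caki2+PBRM1, at most 1.89 normalized counts. The partner with which SLC3A1 forms the renal carrier was thus near the floor, under the filter, and was not tested. Of the 6541 exon bases of SLC3A1, 1923 are also exonic in the antisense gene PREPL, and 1761 in an unnamed GENCODE gene on the same strand. PREPL had 719 to 790 normalized counts and a log2 difference of 0.03 (adjusted p = 0.726). Whether reads on the shared bases were counted for SLC3A1, for PREPL or for neither was not tested.

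SLC7A1, or CAT-1, is the uniporter that brings arginine and lysine into most cells. It had 1022, 1014 and 1104 normalized counts in Caki2+Vector and 1149, 1111 and 1135 in Caki2+PBRM1. Every Caki2+PBRM1 library was above every Caki2+Vector library. The log2 difference was 0.11 (95% interval 0.01 to 0.21), and the adjusted p of 0.0794 missed the threshold. It passed without Caki2+Vector C, at 0.15 with an adjusted p of 0.0316, so the call depends on 1 library.

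SLC1A5, or ASCT2, exchanges glutamine and other neutral amino acids with sodium. Its normalized counts were 2646, 2999.6 and 2983 in Caki2+Vector and 2984, 3143 and 3006 in Caki2+PBRM1. The groups overlapped, with Caki2+Vector A again the lowest library, and the log2 difference was 0.08 (95% interval -0.01 to 0.17, adjusted p = 0.161). Leaving out Caki2+Vector A gave 0.02. SLC38A1, or SNAT1, a sodium-coupled glutamine importer, had 5634, 5378 and 5615 normalized counts in Caki2+Vector and 5584, 5759 and 5676 in Caki2+PBRM1. The groups overlapped here too, and the log2 difference was 0.03 (95% interval -0.04 to 0.10, adjusted p = 0.501).

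SLC38A2, or SNAT2, is the sodium-coupled importer of small neutral amino acids whose transcript is known to respond to amino acid starvation and to hypertonic stress. It had 3039, 2929 and 3042 normalized counts in Caki2+Vector and 3722, 3816 and 3916 in Caki2+PBRM1. Every Caki2+PBRM1 library was above every Caki2+Vector library, and the mean was 1.27-fold higher. The log2 difference was 0.35 (SE 0.037, adjusted p = 1.93e-08 from limma), and it ran from 0.33 to 0.36 when each library was left out in turn. The ratio of SLC38A2 to SLC38A1 per kb of exon was 0.834 ± 0.00402 in the Caki2+Vector libraries and 1.04 ± 0.0227 with PBRM1 (SD, n = 3, exact permutation p = 0.1, two-sided, the smallest that 3 against 3 allow). Since SLC38A1 was not called, this ratio mainly restates the difference of SLC38A2 and is not a separate test of it.

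A wider list of 50 other amino acid transporters was compared in the same fit. Of these, 10 were at 0 in every library and 23 passed the filter, of which 4 were higher and 3 lower with PBRM1. This is 30.4% of those tested, near the 29.2% of all tested genes, and the median log2 difference was 0.07. SLC1A1, the high-affinity glutamate and cysteine transporter also called EAAC1, had 337, 338 and 348 normalized counts in Caki2+Vector and 594, 582 and 584 in Caki2+PBRM1. It was 1.72-fold higher without overlap, with a log2 difference of 0.78 (adjusted p = 4.03e-11). SLC1A4, or ASCT1, which exchanges serine and alanine, rose from 452 ± 30.4 to 590.3 ± 21.1 normalized counts (log2 difference 0.38, adjusted p = 2.31e-05), and the neutral amino acid carrier SLC6A15 rose from 279 ± 22.1 to 367 ± 14.4 (log2 difference 0.39, adjusted p = 1.72e-04).

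The cystine importer SLC7A11, another light chain of SLC3A2, was named after its values were seen. It had 8780, 8406 and 9010 normalized counts in Caki2+Vector and 9660, 9819 and 10056 in Caki2+PBRM1, which made it 1.13-fold higher without overlap (adjusted p = 1.60e-04). Among the genes that were lower, SLC43A2, or LAT4, a sodium-independent carrier of large neutral amino acids, fell from 80.6 ± 11.3 to 55.1 ± 4.03 normalized counts (log2 difference -0.53, adjusted p = 0.00658), a call that was lost without Caki2+Vector B (adjusted p = 0.0592). The arginine transporter SLC7A2, or CAT-2, had a log2 difference of -0.42 (adjusted p = 0.042), and SLC25A12, the mitochondrial aspartate and glutamate carrier, had -0.23 (adjusted p = 0.0392). These last calls were lost under 8 and 7 of 15 alternatives. Without Caki2+Vector A the wider list had 11 calls, and without Caki2+Vector B it had 4. Among all tested genes these settings gave 4154 and 3414 calls, against 3886 with all 6 libraries. By family, both tested SLC1 genes of this list were higher, none of the 4 tested SLC38 genes was called, and 1 of 6 tested mitochondrial carriers was called.

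**Figure D4:**
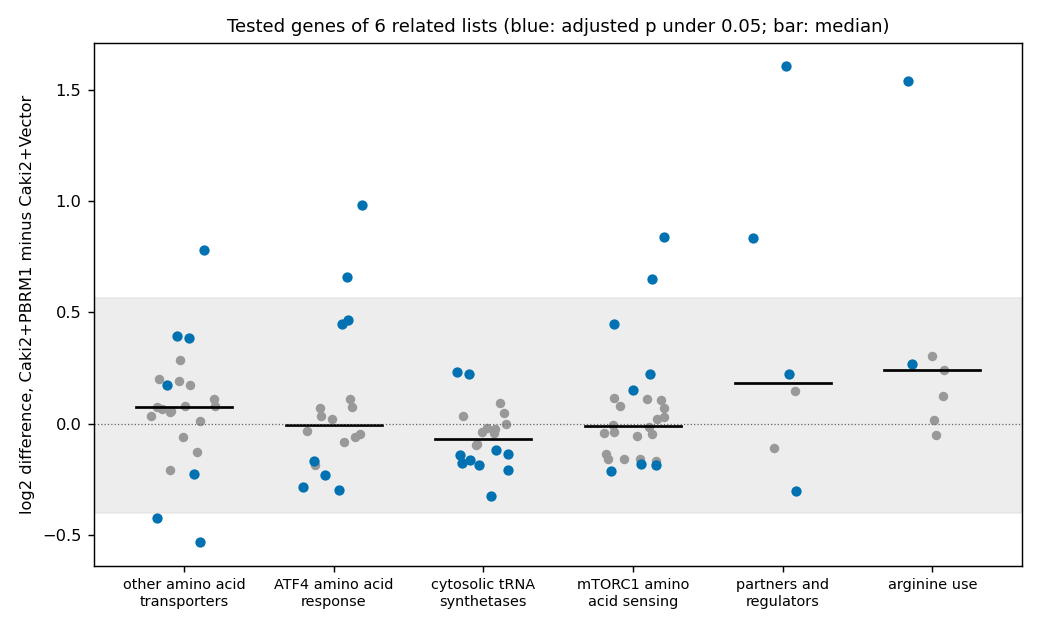
Difference in log2(normalized count + 1) between Caki2+PBRM1 and Caki2+Vector (y axis) for the tested genes of 6 gene lists, with a bar at the median of each list. The grey band holds the 5th to 95th percentile of all 13303 tested genes, from -0.40 to 0.57, the dotted line is their median, and blue points passed the test.

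Proteins that partner with or regulate these carriers were listed separately, with 6 of 8 tested, of which 3 were higher and 1 lower (66.7%, against 29.2% of all tested genes). TMEM27, or collectrin, which brings SLC6 amino acid carriers to the membrane of the proximal tubule, had 84.3, 71.8 and 56.3 normalized counts in Caki2+Vector and 210.1, 220 and 215 in Caki2+PBRM1. It was 3.03-fold higher without overlap (log2 difference 1.61, adjusted p = 2.99e-11). Its renal partners SLC6A18 and SLC6A19 were at 0 in every library, which at 3 reads allows up to 2.52 to 3.60 normalized counts, depending on the library. SLC6A20, another SLC6 amino acid carrier, was low but present in every library, and was named after its values were seen. It had 6.63, 6.61 and 9.59 normalized counts in Caki2+Vector and 11.9, 9.78 and 12.6 in Caki2+PBRM1. The groups did not overlap, but the gene was under the filter and was not tested. EPAS1, which encodes the hypoxia factor HIF2A, rose from 102 ± 6.63 to 182 ± 12.9 normalized counts (log2 difference 0.83, adjusted p = 3.33e-07), and BSG, the chaperone basigin, which was named after its values were seen, was 1.16-fold higher (adjusted p = 0.00112). MYC fell from 1165 ± 56.8 to 945 ± 24.5 (log2 difference -0.30, adjusted p = 2.30e-05). Of the members with the E-box that MYC binds, SLC7A7 had a log2 difference of -1.53, SLC7A5 of 0.01 and SLC1A5 of 0.08, and SLC7A8 was under the filter. Whether MYC has a part in these values was not tested.

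Of 18 genes of the ATF4 amino acid response, 4 were higher and 4 lower, with a median log2 difference of -0.01. The 8 calls are 44.4% of the list, against 29.2% of all tested genes. PHGDH, which begins serine synthesis, had 132, 133 and 163 normalized counts in Caki2+Vector and 257, 306 and 284 in Caki2+PBRM1 (log2 difference 0.98, adjusted p = 3.34e-09), and SHMT2, the mitochondrial serine hydroxymethyltransferase, was 1.37-fold higher (adjusted p = 5.60e-10). The secreted glycoprotein STC2 was 1.38-fold higher (adjusted p = 3.53e-10). Lower calls included ATF5 (log2 difference -0.30, adjusted p = 0.00219 from limma), TRIB3 (-0.28, adjusted p = 8.25e-05) and SESN2 (-0.23, adjusted p = 0.0301). ATF4 itself (0.03, adjusted p = 0.571) and ASNS (-0.03, adjusted p = 0.849) were not called. All of these after STC2 were named after their values were seen. The other enzymes of serine synthesis in the list, PSPH and PSAT1, did not rise with PHGDH, and were named after their values were seen. PSPH was called lower (log2 difference -0.17, adjusted p = 0.0303 from limma), a call lost with DESeq2 (adjusted p = 0.106). The call was also lost without Caki2+PBRM1 B, without Caki2+PBRM1 C or without Caki2+Vector B. PSAT1 was not called (adjusted p = 0.275 from limma). DESeq2 on the recovered reads called 5 genes of the list instead of 8, 3 higher and 2 lower, as many as limma without Caki2+PBRM1 C or without Caki2+Vector B. In these 3 settings 2553, 2798 and 3414 of all tested genes were called, against 3886 with limma on all 6 libraries.

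Of 20 cytosolic aminoacyl-tRNA synthetases, which load amino acids onto tRNA, 2 were higher and 8 lower, which is 50% of the list against 29.2% of all tested genes, where 16.2% were higher and 13.0% lower. The median log2 difference was -0.07. VARS, the valyl enzyme, fell from 2420 ± 156 to 1929 ± 48.4 normalized counts (log2 difference -0.32, adjusted p = 1.59e-06). GARS and RARS, the glycyl and arginyl enzymes, were higher, by log2 differences of 0.23 (adjusted p = 1.79e-04) and 0.22 (adjusted p = 0.00164). The count of calls was 5 without Caki2+PBRM1 C (2 higher and 3 lower) and 6 without Caki2+PBRM1 A (2 higher and 4 lower). With DESeq2 it was 7 (2 higher and 5 lower), so only lower calls were lost in these settings. Calls among all tested genes were 2798, 2915 and 2553 in the same order, against 3886 with limma on all 6 libraries.

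Of 26 genes of amino acid sensing by mTORC1, the kinase complex that reads amino acid supply at the lysosome, 5 were higher and 3 lower, with a median log2 difference of -0.01. These calls are 30.8% of the list, near the 29.2% of all tested genes. RRAGD and RRAGA, Rag GTPases that recruit mTORC1 to the lysosome, were 1.79-fold (log2 difference 0.84, adjusted p = 2.20e-06) and 1.36-fold higher (log2 difference 0.45, adjusted p = 8.26e-08). The other Rag genes did not rise with them, and were named after their values were seen. RRAGC was called lower (log2 difference -0.21, adjusted p = 0.029 from limma), a call lost with DESeq2 (adjusted p = 0.121). RRAGB was not called (log2 difference -0.17, adjusted p = 0.309 from limma). SESN3, a member of the sestrin family, rose from 34.5 ± 3.34 to 54.9 ± 6.77 normalized counts (log2 difference 0.65, adjusted p = 0.00545). The more abundant sestrins did not rise with it. SESN2, counted with the ATF4 response, went from a mean of 319 to 272 and was called lower by limma, though not by DESeq2 (adjusted p = 0.122). SESN1, named after its values were seen, was not called (log2 difference -0.05, adjusted p = 0.759 from limma). The count of calls was 4 instead of 8 with DESeq2 and without Caki2+PBRM1 C, and 5 without Caki2+PBRM1 B or without Caki2+Vector C. Calls among all tested genes fell too, from 3886 to 2553 with DESeq2 and 2798 without Caki2+PBRM1 C. They were 2882 without Caki2+PBRM1 B and 3541 without Caki2+Vector C.

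SLC7A7 exports arginine, and 10 enzymes of arginine use and synthesis, with steps of the urea cycle among them, were compared. Of these, 7 passed the filter. The 2 calls, both higher, are 28.6% of those tested, near the 29.2% of all tested genes. CPS1, the mitochondrial carbamoyl phosphate synthetase of the urea cycle, had 23.6 ± 5.74 normalized counts without PBRM1 and 69.3 ± 6.07 with it (SD, n = 3), and was 2.94-fold higher without overlap (log2 difference 1.54, adjusted p = 3.06e-07). OAT, the ornithine aminotransferase, rose from 569.6 ± 15.2 to 687 ± 5.80 (log2 difference 0.27, adjusted p = 3.90e-04). Neither CPS1 nor OAT takes arginine as its substrate, so these calls do not speak of arginine use. None of the other 5 tested enzymes was called. Among them were ARG2 (adjusted p = 0.274) and GATM (adjusted p = 0.161 from limma), which do take arginine. ARG1 and NOS3, which also take it, were under the filter. These 4 were named after their values were seen.

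The genes whose pattern was most like that of SLC7A7 were ranked by Pearson r of log2(normalized count + 1) over the 6 libraries, among 10980 genes with a mean of at least 50. The 5 most alike included CELSR3 and C15orf41 (r = 0.996 for each) and JRK (r = 0.995). These coefficients over 6 points share the same groups and libraries and are a description only. The genes differed in size of effect, since the log2 difference was -1.08 for CELSR3, a cadherin-family receptor, and -0.21 for JRK.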

How the data were processed

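Poly(A) RNA of 6 Caki2 samples was sequenced, and groups and replicate letters were taken from the labels. The authors removed adapters, poor reads and rRNA reads, aligned to hg19 with STAR, counted reads per gene of the UCSC annotation with htseq-count and normalized with DESeq2. Tool versions and strandedness are not given in the sources used here. The deposited values are a signal, normalized counts equal to reads divided by a size factor of 0.834 to 1.19 per library. All of them (100%) were whole multiples of 1 read within 0.01, so whole reads were recovered.

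Genes with at least 10 normalized counts in at least 3 libraries (13303) were tested as log2(normalized count + 1) with limma 3.58.1 (trend and robust, R 4.3.3) and Benjamini-Hochberg adjustment over all of them. Scripts were tested on simulated data. Alternatives were edgeR 4.0.16 (quasi-likelihood, TMM), DESeq2 1.42.0 and limma voom on recovered reads, TMM scaling, pseudocounts of 0.5 and 4, no filter, at least 10 in every library, a replicate block and leaving out each library, and for levels per kb the longest transcript and the coding length. Exon lengths, overlaps and coordinates came from GENCODE on GRCh37. Of the other lists, genes were named that were called, reached a mean of 50 normalized counts in either group and differed most, 6 of the wider transporter list and 3 of each other list. The members and lists were chosen with earlier results of these data known. The paper calls the samples biological replicates, and p-values measure the spread between these samples. Precision is limited by 7312955 to 10835355 reads per library, and counting intervals cover counting error only. Some genes that the naming rule or the marker lists would name are not reported here.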

Additional observations from a re-analysis of the deposited data

How the results depend on the processing

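The log2 difference of SLC7A7 ran from -1.62 to -1.44 over 15 alternatives. DESeq2 called 1 of the other members instead of 2, 5 ATF4 response genes, 7 tRNA synthetases and 4 mTORC1 sensing genes. In all, DESeq2 called 2553 genes and edgeR called 4030, against 3886 with limma. Leaving out 1 library in turn gave 2 to 3 calls among the other members, 4 to 11 in the wider transporter list, 5 to 8 among ATF4 response genes, 5 to 10 among tRNA synthetases, 4 to 8 among mTORC1 sensing genes and 2798 to 4154 genes in all. Leaving out 1 library gave -0.070 to 0.059 for the log2 difference of SLC7A5, which turned in sign without Caki2+PBRM1 C (-0.0030) and without Caki2+Vector A, and -0.015 to 0.070 for that of SLC3A2, which turned without Caki2+Vector A; the cause was not tested. SLC7A7 held 31.2% of SLC7A6 plus SLC7A7 in Caki2+Vector with the longest transcript as length and 17.9% with the coding length, against 23.4% with all exons. For single genes, 399 of 420 values kept their direction and their side of the threshold, 17 no longer passed, 1 newly passed (SLC7A1) and 3 turned in sign, of which SLC7A5 without Caki2+Vector A also passed the threshold. No scaling moved the median of all tested genes by over 0.1.

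Libraries of the same letter showed no shared deviation across genes (r from -0.008 to 0.014). Counting noise in low genes could hide a small shared effect, so whether the letters mark pairs is not settled. With the replicate block, 4107 genes were called against 3886, the difference of SLC7A7 was -1.53, and the other members kept 2 calls. Genes under the filter, such as SLC7A8, could not be tested at this depth.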
